A study of Drosophila melanogaster with 48 samples.

Results

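The ventral column is the stripe of neurogenic ectoderm that lies next to the ventral midline of the Drosophila embryo, and its cells were compared here with all other embryo cells at 4 to 6 h after egg laying (AEL). The comparison rests on 4 of the 48 libraries of the series, 2 of 4-6h Vnd-pos cells and 2 of 4-6h Vnd-neg cells, chosen by their labels alone. Both groups came from 1 fly line, vnd_743::dsRed, which carries P{vnd_743::dsRED} in a y1 w1118 (yellow-white) background. A red fluorescent protein under a vnd enhancer marked the cells. Fixed cells were stained and sorted into a marker-enriched and a marker-depleted fraction, so that Vnd-neg cells are the rest of the same embryos and include every other tissue. The gate reads the reporter and not the Vnd protein, and a fluorescent protein can persist after its enhancer has gone quiet. For comparison, 6-8h Vnd cells came from the same line. 4-6h Ind cells, of the neighbouring intermediate column, carried P{ind_1.4::dsRED} (line ind_1.4::dsRed). 4-6h Pros cells, neuroblasts and ganglion mother cells stained for Prospero, came from the line vnd-lexA/VC:FNLDD, with M{3x vnd-lexA:Cit}ZH-51C and P{vnd:FNLDD}. All these lines share the y1 w1118 background, each fraction has 2 biological replicates, and line and population cannot be told apart between Vnd, Ind and Pros cells.

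The neurogenic ectoderm is split along its dorsoventral axis by 3 homeodomain proteins. Vnd acts in the ventral column, Ind in the intermediate column and Msh, encoded by Dr, in the lateral column, and each more ventral factor represses the next. Neural stem cells, the neuroblasts, leave each column and divide to give ganglion mother cells, which in turn give neurons and glia. The row of cells just ventral of the column is the midline, which is specified by the bHLH-PAS factor Sim and forms its own neurons and glia.

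The 4 libraries held 28703745 and 39846052 estimated reads in Vnd-pos cells, against 42983668 and 40423487 in Vnd-neg cells. Replicates of a group correlated at 0.978 in Vnd-pos cells and 0.979 in Vnd-neg cells. Reads on odorant, gustatory and ionotropic receptor genes, which are used by later sensory neurons, differed between libraries. Their median was 9.88 and 6.40 TPM (transcript abundance scaled for length and depth) in Vnd-pos libraries, against 4.49 and 7.07 TPM in Vnd-neg libraries, so the groups overlapped. Levels below are CPM, read counts scaled to library size with TMM factors. They compare 1 gene between libraries of the same sort and not genes with each other.

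vnd itself was checked first. The gene (FBgn0261930, X:582121-598151, plus strand, BDGP6.54) had 107 and 137 CPM in Vnd-pos libraries, against 38.2 and 38.0 CPM in Vnd-neg libraries. Both Vnd-pos libraries lay above both Vnd-neg libraries. The log2 fold change was 1.68 ± 0.35 (SE, n = 2 each), or 3.21-fold, with an edgeR quasi-likelihood adjusted p of 0.0221 (Benjamini-Hochberg). Vnd-neg cells thus kept a clear level of vnd. The fold change was 1.85 without Vnd-pos replicate 1 (adjusted p = 0.0425), 1.49 without Vnd-pos replicate 2 (adjusted p = 0.404), 1.69 without Vnd-neg replicate 1 (adjusted p = 0.631) and 1.68 without Vnd-neg replicate 2 (adjusted p = 0.302), all on the log2 scale and with the edgeR test. In bulk libraries, fewer cells of a type and less RNA per cell cannot be told apart.

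The transcripts of vnd did not move alike. They are given here because the sum over a gene hides them, and they were picked after their values were seen, so no test was made. vnd-RA, the shorter transcript (X:591042-597819), had 78.6 and 83.7 TPM in Vnd-pos libraries, against 15.4 and 17.3 TPM in Vnd-neg libraries, a ratio of the means of 4.96. vnd-RB (X:582121-598151), which starts further upstream, had 11.9 and 14.0 TPM in Vnd-pos libraries, against 8.51 and 9.84 TPM in Vnd-neg libraries, a ratio of 1.41. At 6-8h the same ratios were 11.8 for vnd-RA and 1.73 for vnd-RB. Such estimates divide reads over shared exons and carry an error of their own that is not counted here. The 4-6h levels of vnd-RB were not far above the receptor medians of the same libraries, 4.49 to 9.88 TPM. Whether a shared low level of reads draws its ratio towards 1 was not tested.

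sim showed a like split. Its transcript sim-RA (3R:13072399-13078124) had 4.96 and 7.52 TPM in Vnd-pos libraries, against 6.12 and 4.68 TPM in Vnd-neg libraries, and the groups overlapped. sim-RC (3R:13062522-13078124) and sim-RD (3R:13057755-13078124), which start upstream of it, were higher in both Vnd-pos libraries, with ratios of the means of 5.36 and 3.27. sim-RB was listed at 0 in both Vnd-neg libraries and had 14.6 and 7.08 TPM in Vnd-pos libraries. The transcripts of Vmat, the most enriched gene, differed in the same way. Vmat-RC had 72.3 and 74.0 TPM in Vnd-pos libraries, against 4.85 and 3.67 TPM in Vnd-neg libraries, a ratio of 17.2. Vmat-RD had 7.77 and 8.33 TPM in Vnd-pos libraries, against 2.21 and 6.38 TPM in Vnd-neg libraries, a ratio of 1.88. The levels of sim-RA and Vmat-RD lay near the receptor medians of these libraries, and the same limit holds for them.

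**Figure D1:**
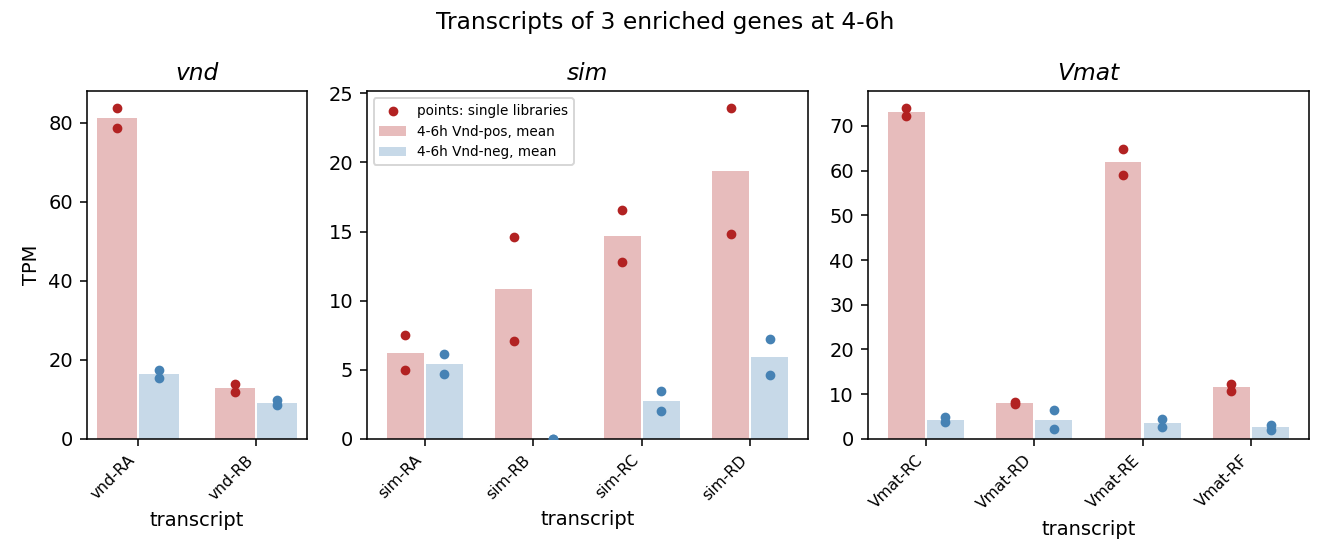
TPM of each annotated transcript of vnd, sim and Vmat at 4-6h (y axis, own scale per gene); bars are the means of 2 libraries and points the single libraries, with Vnd-pos left of Vnd-neg. vnd-RA separates the groups widely (mean ratio 4.96) and vnd-RB little (1.41), and the points of sim-RA overlap between groups.

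Across 17109 genes tested, 95 were enriched in Vnd-pos cells and 22 were depleted, where a call needed an edgeR adjusted p under 0.05 and a fold change past 1 in size on the log2 scale. These are 0.555% and 0.129% of the genes tested. In each of the 95 both Vnd-pos libraries lay above both Vnd-neg libraries, and in each of the 22 both lay below. The same share over all genes tested was not counted, so this adds no support to the calls. Log2 fold changes of enriched genes ran from 1.12 to 3.33 with a median of 1.87, and those of depleted genes from -2.93 to -1.22. Of the enriched genes 91 code for proteins and 4 are lncRNA genes, and 24 (25.3%) lie on the X chromosome, against 15.1% of the genes tested. The counts were sensitive to the number of libraries. They were 61 enriched and 0 depleted without Vnd-pos replicate 1, 5 and 0 without Vnd-pos replicate 2, 0 and 0 without Vnd-neg replicate 1, and 1 and 0 without Vnd-neg replicate 2. At an unadjusted p under 0.05 these 4 edgeR fits had 392, 265, 294 and 298 genes past the fold threshold upward and 175, 293, 144 and 325 downward. All 95 and all 22 kept their direction and a log2 fold change past 1 in each of these 4 fits. Their direction was nearly fixed in advance, because none overlapped between groups. The genes were also chosen on the same 4 libraries, so this adds no support. In the other direction, DESeq2 called 374 enriched and 103 depleted genes, and these held all 95 and all 22.

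Vmat (2R:13513132-13534251), the transporter that loads monoamines into synaptic vesicles, had 245 and 312 CPM in Vnd-pos libraries, against 29.3 and 26.2 CPM in Vnd-neg libraries. That is a log2 fold change of 3.33 ± 0.51 (edgeR adjusted p = 0.00148), the largest of the called genes. Another monoamine gene, Tbh, tyramine beta-hydroxylase, which makes octopamine, had 51.0 and 66.7 CPM in Vnd-pos libraries, against 12.1 CPM in each Vnd-neg library (2.29 ± 0.48, edgeR adjusted p = 0.0221). For both genes the groups were far apart, and the rule for named genes required that they did not overlap.

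Over 9 monoamine genes, these 2 were enriched and none was depleted, where 0.555% of all genes tested were enriched and 0.129% depleted. The list median was 0.49, against 0.03 for all genes tested. The members that did not pass included Tdc2, a neuronal tyrosine decarboxylase (1.06, edgeR adjusted p = 0.380), the dopamine transporter DAT (1.01), the serotonin transporter SerT (0.37) and ple, tyrosine hydroxylase (0.49). The list summed to 309.6 and 299 TPM in Vnd-pos libraries, against 79.7 and 98.7 TPM in Vnd-neg libraries. Most of that gap was carried by Vmat. The members of this and the other lists were chosen with earlier results of these data known, so their counts are no independent support.

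The enriched midline genes were wrapper, oc and sim. wrapper (2R:22379637-22382675), an immunoglobulin-family protein of midline glia, had 59.5 and 72.5 CPM in Vnd-pos libraries, against 9.44 and 10.3 CPM in Vnd-neg libraries (2.74 ± 0.34, edgeR adjusted p = 0.000104, the lowest of all genes). oc, the homeobox gene orthodenticle of the head and midline, had 286 and 399 CPM in Vnd-pos libraries, against 72.3 and 63.7 CPM in Vnd-neg libraries (2.33 ± 0.39, edgeR adjusted p = 0.00373). sim had 52.6 and 64.1 CPM in Vnd-pos libraries, against 17.4 and 18.4 CPM in Vnd-neg libraries (1.71 ± 0.39, edgeR adjusted p = 0.0316). None of the 3 genes overlapped between groups, which the rule for named genes required of wrapper and oc.

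Of 12 midline genes, these 3 were enriched, against 0.555% of all genes tested, none was depleted, and 9 did not pass. 11 of the 12 fold changes were above 0 and the median was 0.76. Among those that did not pass were NetB, an axon guidance cue (1.33), sli, the midline repellent Slit (0.84), and pnt, an ETS factor downstream of the EGF receptor (-0.56). The list summed to 1808 and 1956 TPM in Vnd-pos libraries, against 1003 and 986 TPM in Vnd-neg libraries, and no member was at 0 reads. wrapper was also enriched in glia sorted by Repo, by 5.09 at 6-8h, 3.37 at 8-10h and 3.25 at 18-22h. oc was also enriched in 4-6h Pros cells (2.10). In neurons sorted by Elav it was enriched at 6-8h (1.37), 8-10h (1.22) and 18-22h (1.15). wrapper was enriched in 6-8h Elav cells too (1.85). sim was enriched in 18-22h Elav cells (1.22). It was depleted from 6-8h Repo cells (-1.64) and from Ind cells at 4-6h (-2.20) and 6-8h (-1.91). Each of these 3 genes was thus also enriched in another sort. Whether midline cells lay within the gate was not tested.

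Of the columnar and SoxB genes, 2 of 6 were enriched, vnd and HGTX, against 0.555% of all genes tested, and none was depleted. HGTX, a homeobox gene of the Nkx6 type that acts in ventral motor neurons, had 105 and 133 CPM in Vnd-pos libraries, against 29.7 and 32.0 CPM in Vnd-neg libraries (1.95 ± 0.35, edgeR adjusted p = 0.00722). HGTX was also enriched in 4-6h Ind cells (2.13) and 4-6h Pros cells (2.65), and so is not particular to the Vnd sort. Its enrichment in Vnd minus that in Ind cells was -0.18 ± 0.48. ind had 8.26 and 10.2 CPM in Vnd-pos libraries, against 14.1 and 10.5 CPM in Vnd-neg libraries (-0.41 ± 0.34). Dr had 49.5 and 61.5 CPM in Vnd-pos libraries, against 66.7 and 60.7 CPM in Vnd-neg libraries (-0.20 ± 0.41), and its groups overlapped. The genes of the other columns were thus not called in either direction. The SoxB genes D and SoxN, which act across the neurogenic ectoderm, gave 1.38 (edgeR adjusted p = 0.0987) and 0.64.

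**Figure D2:**
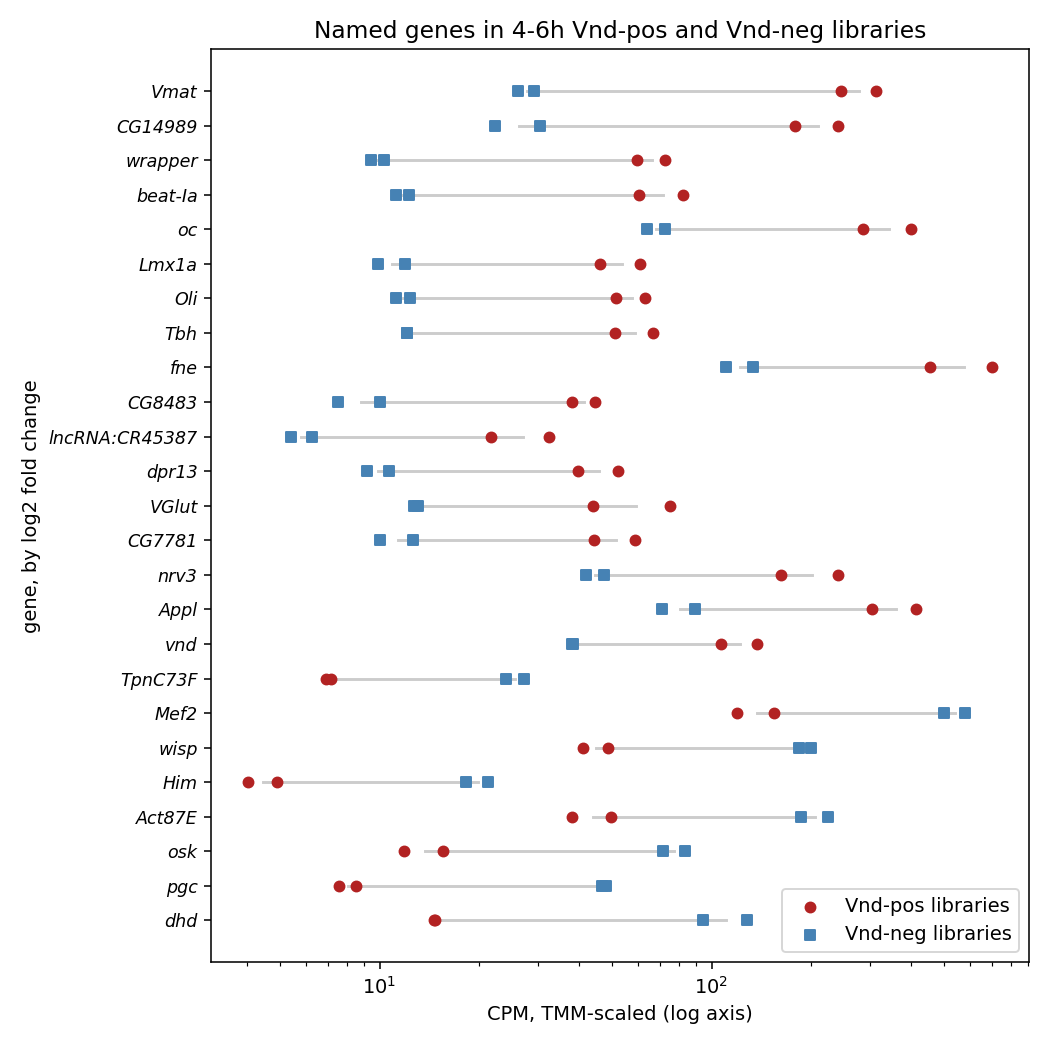
CPM in each of the 4 libraries (x axis, log scale) for vnd and the 16 enriched and 8 depleted genes taken by rule (y axis, by fold change); red circles are Vnd-pos libraries, blue squares Vnd-neg libraries, and grey lines join the group means. The circles lie right of the squares for all enriched genes, up to Vmat at 245 and 312 against 29.3 and 26.2, and left of them for all depleted genes. The rule required this separation of every gene but vnd.

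Genes of differentiated neurons formed the list with the highest median. 5 of 8 neuron genes were enriched, against 0.555% of all genes tested, and the list median was 1.91, against 0.03 over all genes. fne, an RNA-binding protein of the Elav family, had 455 and 699 CPM in Vnd-pos libraries, against 133 and 110.4 CPM in Vnd-neg libraries (2.24 ± 0.41, edgeR adjusted p = 0.00740). nSyb, the neuronal synaptobrevin, had 141 and 192 CPM in Vnd-pos libraries, against 41.3 and 39.8 CPM in Vnd-neg libraries (2.04 ± 0.40, edgeR adjusted p = 0.0141). Neither gene overlapped between groups, which the rule for named genes required of fne.

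The other enriched neuron genes were scrt, a zinc-finger factor (1.98), and the vesicle calcium sensors Syt1 (1.96) and Syt4 (1.86). elav had 1376 and 2003 CPM in Vnd-pos libraries, against 580.5 and 487 CPM in Vnd-neg libraries, but its edgeR adjusted p was 0.0897. brp, of the active zone, had an adjusted p of 0.0591 and VAChT, the acetylcholine transporter, one of 0.235 in the same test. The list summed to 1369 and 1583 TPM in Vnd-pos libraries, against 374 and 364 TPM in Vnd-neg libraries. How far neurons within the gate carry the enriched genes was not tested.

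The rule also took 10 other enriched genes that code for proteins. CG14989 (7.95-fold) had 178 and 241 CPM in Vnd-pos libraries, against 30.4 and 22.3 CPM in Vnd-neg libraries. beat-Ia, which lets motor axons leave their bundle, had 60.3 and 82.2 CPM in Vnd-pos libraries, against 12.3 and 11.2 CPM in Vnd-neg libraries. VGlut, the vesicular glutamate transporter, had 43.9 and 74.8 CPM in Vnd-pos libraries, against 13.1 and 12.7 CPM in Vnd-neg libraries. Their log2 fold changes were 2.99, 2.60 and 2.21. Lmx1a, a LIM-homeobox gene (2.30), Oli, an Olig-family bHLH gene (2.29), the immunoglobulin-family gene dpr13 (2.21), nrv3, a sodium pump subunit (2.18), Appl, the amyloid precursor-like protein (2.16), CG8483 (2.23) and CG7781 (2.18) completed the rule, with edgeR adjusted p between 0.000801 (Lmx1a) and 0.0402 (dpr13).

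All 4 enriched lncRNA genes fell under the rule. lncRNA:CR45388 (3L:18852573-18861363) had 100.1 and 158 CPM in Vnd-pos libraries, against 43.1 and 35.0 CPM in Vnd-neg libraries (1.72 ± 0.38). lncRNA:CR45387 (3L:18854317-18854622) lies within it on the same strand, and its fold change (2.22 ± 0.44) is uncertain for that reason. lncRNA:CR45347 (2L:20562247-20575720) had 15.7 and 22.0 CPM in Vnd-pos libraries, against 4.44 and 3.99 CPM in Vnd-neg libraries (2.16 ± 0.52). lncRNA:CR45919 (2L:17560813-17566551) gave 1.85 ± 0.40. The edgeR adjusted p of the 4 ran from 0.0140 to 0.0415.

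Other enriched genes were picked out after their values were seen. Among them were the transcription factor genes dve (2.13), onecut (1.73), br (1.64), Sox21b (1.62), unc-4 (1.35) and dac (1.16). dve, a homeobox gene known from the gut, had 156 and 211 CPM in Vnd-pos libraries, against 42.5 and 41.2 CPM in Vnd-neg libraries. Genes of the release machinery among the 95 included cpx, complexin (2.10), Rab3 (1.98), Syn, synapsin (1.90), and Rim (1.72). Receptor and channel genes included the acetylcholine receptor subunit nAChRbeta1 (2.01) and the glutamate-gated chloride channel GluClalpha (1.87).

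Proneural and neuroblast genes moved less. 1 of 18 was enriched, nerfin-1, a zinc-finger gene of newly born neurons, with 432 and 627 CPM in Vnd-pos libraries, against 132 and 111 CPM in Vnd-neg libraries (2.12 ± 0.48, edgeR adjusted p = 0.0270). The list median was 0.49. cas (1.55), wor (1.32) and ase (1.22) did not pass, and the proneural genes ac (0.05), sc (-0.01) and l(1)sc (-0.29) differed by less than their standard errors. Vnd is known to act on ac in the ventral column. ac had 16.1 and 19.1 CPM in Vnd-pos libraries, against 18.4 and 15.7 CPM in Vnd-neg libraries, and the groups overlapped.

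EGF receptor signalling is active along the midline and in the ventral column. None of 13 genes of this pathway passed. rho, the protease that releases the ligand Spitz, came nearest, with 128 and 163.6 CPM in Vnd-pos libraries, against 60.5 and 54.0 CPM in Vnd-neg libraries (1.35 ± 0.38, edgeR adjusted p = 0.101). Egfr (-0.46), spi (-0.03) and the feedback inhibitor aos (0.38) did not pass. The list median of -0.02 turned to 0.15 with median-of-ratios factors, and so no direction is given.

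In the Notch pathway (13 genes), the Hox genes (8), the motor neuron and ventral neuroblast factors (9) and the glial genes (7), none was called. Their medians were 0.23, 0.33, 0.05 and -0.25. The motor neuron factors Lim3 (1.33, edgeR adjusted p = 0.0550) and exex (1.28, adjusted p = 0.101) lay above the median of their list. repo, which defines most glia, had 25.5 and 28.5 CPM in Vnd-pos libraries, against 26.1 and 21.7 CPM in Vnd-neg libraries. Of 10 head and brain factors only oc was called. All 13 cell cycle genes had fold changes below 0, also with median-of-ratios factors, with a median of -0.58, and none passed the test. Ribosomal protein genes lay on the same side, with 81 of 88 below 0 and a median of -0.48 (-0.29 with median-of-ratios factors). Chemosensory receptor genes lay on the other, with 124 of 159 above 0 and a median of 0.26, and no gene of either list was called.

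**Figure D3:**
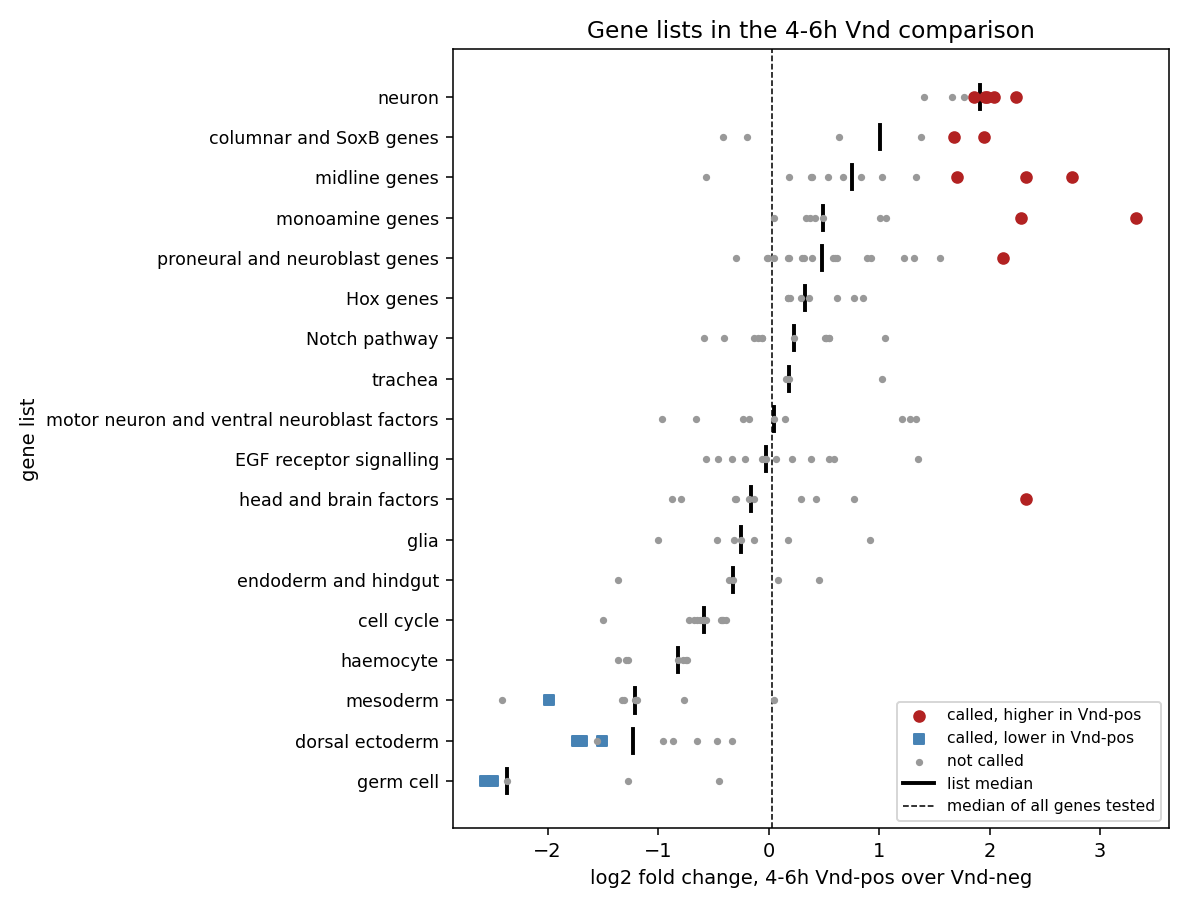
Log2 fold change of Vnd-pos over Vnd-neg cells (x axis) for each gene of 18 lists (y axis, by median); red circles are enriched, blue squares depleted and grey points not called, black bars are list medians, and the dashed line is the median of all genes (0.03). The neuron list has the highest median (1.91) and the germ cell list the lowest (-2.37).

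Of the 22 depleted genes, 7 were on one of the lists, 4 of dorsal ectoderm, 1 of mesoderm and 2 of germ cells, and the other 15 were on none. Dorsal ectoderm genes had 4 of 10 members depleted, against 0.129% of all genes tested, with all 10 fold changes below 0 and a median of -1.23. dpp, the dorsal BMP ligand, fell to 41.1 and 50.2 CPM in Vnd-pos libraries, against 159.7 and 144 CPM in Vnd-neg libraries (-1.73 ± 0.42, edgeR adjusted p = 0.0402). The Dorsocross T-box genes Doc1 (-1.72), Doc2 (-1.51) and Doc3 (-1.69) fell with it. Doc1 had 20.0 and 22.3 CPM in Vnd-pos libraries, against 73.3 and 66.6 CPM in Vnd-neg libraries. The GATA factor pnr (-1.56) did not pass.

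Of 10 mesoderm genes, 9 had fold changes below 0, and 1 was depleted, against 0.129% of all genes tested. Mef2, the muscle transcription factor, had 119 and 155 CPM in Vnd-pos libraries, against 581 and 502 CPM in Vnd-neg libraries (-1.98 ± 0.46, edgeR adjusted p = 0.0316). The muscle genes Act87E, an actin (-2.23), Him, an inhibitor of muscle differentiation (-2.14), and TpnC73F, a troponin C (-1.87), were depleted too, as were Mlc2 (-1.80) and org-1 (-1.52), picked after their values were seen. The mesoderm list summed to 871 and 992 TPM in Vnd-pos libraries, against 2242 and 2137 TPM in Vnd-neg libraries. twi (-1.31) did not pass.

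The 3 most depleted genes were of the germ line or of maternal origin. dhd, a thioredoxin made in the ovary, had 14.7 and 14.5 CPM in Vnd-pos libraries, against 128 and 94.0 CPM in Vnd-neg libraries (-2.93 ± 0.63, edgeR adjusted p = 0.0221). pgc, which silences transcription in pole cells, had 7.53 and 8.52 CPM in Vnd-pos libraries, against 46.9 and 48.2 CPM in Vnd-neg libraries (-2.57 ± 0.52, adjusted p = 0.0173). osk, the organiser of germ plasm, had 11.8 and 15.5 CPM in Vnd-pos libraries, against 83.2 and 71.2 CPM in Vnd-neg libraries (-2.50 ± 0.56, adjusted p = 0.0264). The ovarian poly(A) polymerase gene wisp fell as well (-2.09).

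Of 5 germ cell genes, 2 were depleted (pgc and osk), against 0.129% of all genes tested, and nanos narrowly missed (-2.37, edgeR adjusted p = 0.0558). The list summed to 195 and 184 TPM in Vnd-pos libraries, against 602 and 715 TPM in Vnd-neg libraries. Haemocyte genes had 0 of 7 called and a median of -0.82, endoderm and hindgut genes 0 of 5 and -0.32, and tracheal genes 0 of 3 and 0.18. The haemocyte list summed to 1431 and 1423 TPM in Vnd-pos libraries, against 2462 and 2366 TPM in Vnd-neg libraries, so that genes of other tissues were well above 0 in the Vnd-pos fraction.

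The same 95 genes were followed through the other sorts of the series, which share no library with this one. All sorts were fitted together with a shared spread per gene, so that calls in different sorts are not independent. 88 of them, or 92.6%, were also enriched in 6-8h Elav cells, the early neurons, against 9.34% of all genes. In 4-6h Pros cells 48 (50.5%) were enriched, against 3.6% of all genes, and in 4-6h Ind cells 36 (37.9%), against 1.16% of all genes. The other way round, the 95 genes are 0.555% of all genes tested. They made up 5.51% of the genes enriched in 6-8h Elav cells, 7.79% in 4-6h Pros cells and 18.1% in 4-6h Ind cells. In 18-22h Repo cells, which are mature glia, 3 (3.16%) were enriched, against 3.22% of all genes.

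The share varied with the sort and its size. It was 87 of 95 in 8-10h Elav cells (5.71% of all genes enriched) and 90 of 95 in 18-22h Elav cells (9.09%). In 6-8h Pros cells it was 56 (2.27%) and in 6-8h Ind cells 30 (0.684%). In glia it was 66 at 6-8h (7.36%) and 23 at 8-10h (1.8%). The median fold change of the 95 was 5.28 in 6-8h Elav cells on the log2 scale, which is higher than the 1.87 in the Vnd sort.

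All but 2 of the 95 were enriched in at least 1 other sort. The 2 exceptions, picked by this count and therefore after their values were seen, were CG8483 and CG31145. CG8483 had 38.1 and 44.5 CPM in Vnd-pos libraries, against 10.1 and 7.51 CPM in Vnd-neg libraries, and its fold change was above 0 in the Vnd and Ind sorts and below 0 in all Pros, Elav and Repo sorts. CG31145 had 69.6 and 84.7 CPM in Vnd-pos libraries, against 25.7 and 25.9 CPM in Vnd-neg libraries. Of the 22 depleted genes, 19 were also depleted in 4-6h Ind cells (3.33% of all genes there), 15 in 4-6h Pros cells (2.18%) and 21 in 6-8h Elav cells (7.67%). The count was 14 in 6-8h Ind cells (1.65%) and 15 in 6-8h Pros cells (1.3%). It was 21 in 8-10h Elav cells (7.8%) and 17 in 18-22h Elav cells (11.8%). In Repo cells it was 18 at 6-8h (10.4%), 10 at 8-10h (2.08%) and 10 at 18-22h (2.63%).

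**Figure D4:**
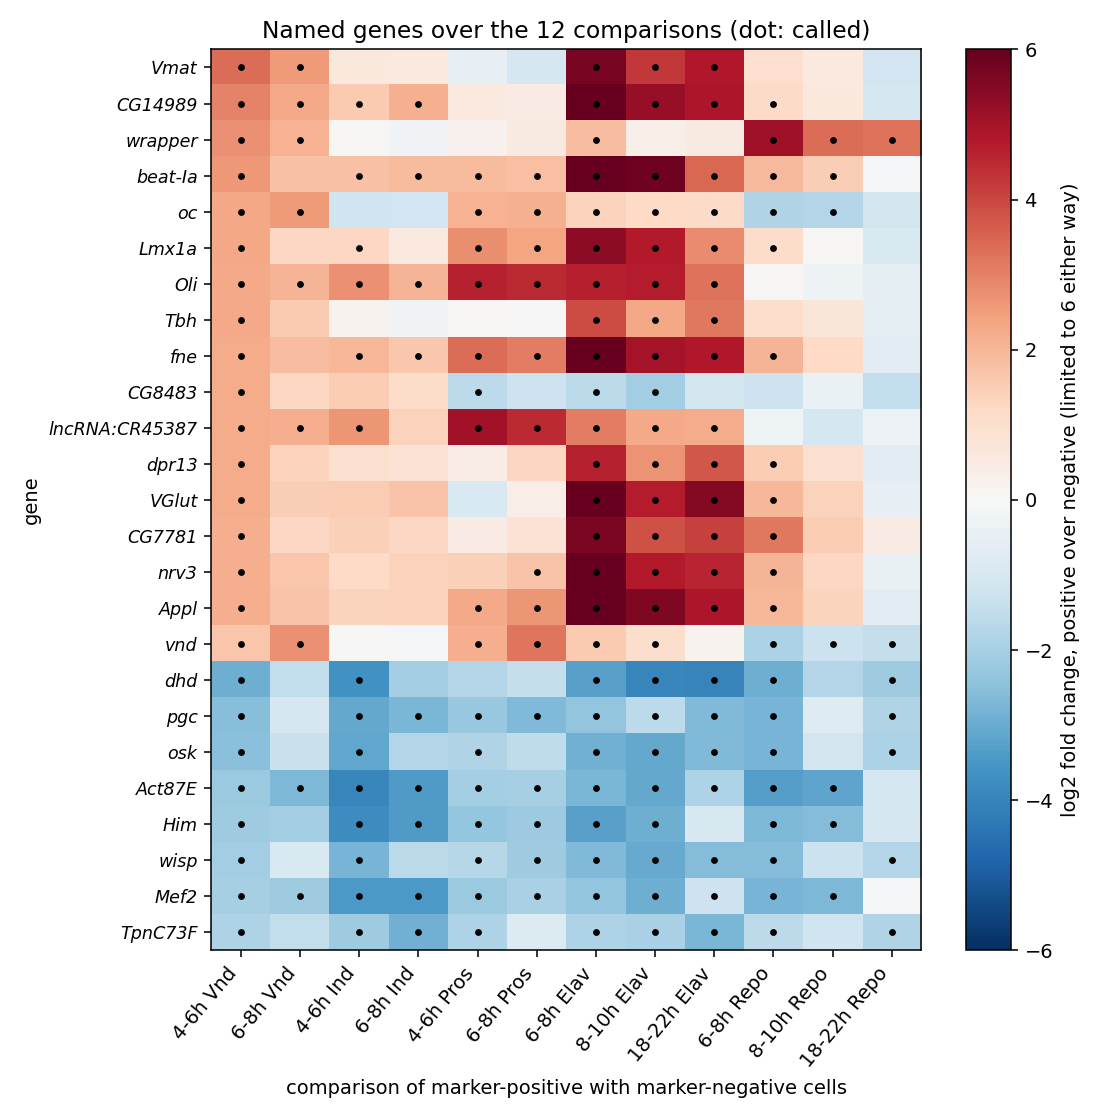
Log2 fold change of marker-positive over marker-negative cells (colour, limited to 6 either way) for vnd and the 24 other genes taken by rule (rows) in the 12 sorts (columns, 4-6h Vnd first); a black dot marks a call. Most enriched genes are deep red in the 3 Elav columns, CG8483 is red only in the Vnd and Ind columns, and the depleted genes are blue in nearly all columns.

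At 6-8h the comparison gave fewer calls, 15 enriched and 9 depleted genes (0.0877% and 0.0526%). Of the 95 genes enriched at 4-6h, 12 were called at 6-8h, which is 12.6% of the 95 and 80% of the 15, yet all 95 had a fold change above 0 there, with a median of 1.23. vnd had 157 and 213 CPM in 6-8h Vnd-pos libraries, against 28.9 and 26.2 CPM in 6-8h Vnd-neg libraries, a log2 fold change of 2.75 ± 0.37. The enrichment at 4-6h minus that at 6-8h was -1.07 ± 0.49 for vnd (edgeR adjusted p = 1). Hence the 2 times were not shown to differ in it.

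Tested across all genes, 0 enrichments differed between 4-6h and 6-8h Vnd cells in either direction with edgeR (0% of genes each way). 17 genes at an unadjusted p below 0.05 were higher and 33 lower at 4-6h past the fold threshold. DESeq2 called 1 and 4 genes, snRNA:U2:14B as higher and CG18853, pre-mod(mdg4)-I, asRNA:CR45891 and CG46306 as lower. Each of these is at 0 in at least 2 of the 8 libraries except CG46306, which is at 0 in 1 of them, and none has more than 10.7 CPM in any.

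The contrast with the neighbouring column was larger. The enrichment of 17 genes was higher in 4-6h Vnd than in 4-6h Ind cells, and that of 6 genes was lower (0.0994% and 0.0351% of genes). Receptor genes had lower medians in the Ind sort, 1.31 and 0.0233 TPM in positive libraries, against 0.579 and 0.242 TPM in negative libraries. Fold changes had medians of -3.40 for mesoderm and -2.61 for dorsal ectoderm in Ind cells, against -1.21 and -1.23 in Vnd cells. How far the unlike receptor levels bear on the differences was not tested. Ect3, a lysosomal beta-galactosidase gene, had 75.2 and 94.2 CPM in Vnd-pos libraries, against 22.6 and 22.3 CPM in Vnd-neg libraries. In the Ind sort it had 11.0 and 6.51 CPM in positive libraries, against 64.8 and 53.7 CPM in negative libraries. The difference of the log2 fold changes was 4.67 ± 0.69 (edgeR adjusted p = 0.000799), although Ect3 was not itself called in Vnd cells (edgeR adjusted p = 0.0534).

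Of the 12 midline genes, 3 differed between the columns (sim, oc and wrapper) and 9 did not pass, with vvl (-0.78), glec (-0.30) and NetA (-0.06) below 0. sim was enriched in Vnd cells (1.71) and depleted from Ind cells (-2.20), with 11.1 and 4.94 CPM in Ind-pos libraries, against 32.6 and 41.1 CPM in Ind-neg libraries, and the difference was 3.90 ± 0.56 (edgeR adjusted p = 0.000742). oc gave 2.33 in Vnd cells and -1.18 in Ind cells (not called there, edgeR adjusted p = 0.0728), a difference of 3.51 ± 0.54 (edgeR adjusted p = 0.00145). wrapper had only 4.88 and 5.50 CPM in Ind-pos libraries, against 5.53 and 4.31 CPM in Ind-neg libraries, and differed by 2.66 ± 0.46. rho, not called in Vnd cells alone, differed by 2.71 ± 0.53 (edgeR adjusted p = 0.0205) and was the 1 gene of 13 in EGF receptor signalling to do so.

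The genes less enriched in Vnd cells included the marker of the other column. ind was not called in Vnd cells (-0.41) and was enriched in Ind cells (2.16), where it had 129 and 169.9 CPM in positive libraries, against 29.7 and 36.9 CPM in negative libraries. The difference was -2.57 ± 0.48 (edgeR adjusted p = 0.0128). ind overlaps Sytbeta on the same strand, so its reads may be shared. ey, a Pax6 gene of the eye and brain, had 18.0 and 15.4 CPM in Vnd-pos libraries, against 19.2 and 18.5 CPM in Vnd-neg libraries, and 273 and 291 CPM in Ind-pos libraries, against 20.0 and 13.2 CPM in Ind-neg libraries, a difference of -4.26 ± 0.52 (edgeR adjusted p = 5.39e-05). CG43740 differed by -3.57 ± 0.59. Among other differences, picked after their values were seen, the homeobox genes dve (2.83 ± 0.49) and otp (2.41 ± 0.42) and the forkhead gene croc (2.91 ± 0.56) were higher in Vnd cells. Of these, dve was enriched in Vnd cells (2.13). otp (0.74) and croc (0.65) were not called there, and their fold changes in Ind cells were -1.67 and -2.26.

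vnd itself did not tell the columns apart by this test. It had 83.6 and 83.2 CPM in 4-6h Ind-pos libraries, against 83.0 and 80.6 CPM in 4-6h Ind-neg libraries (0.03 ± 0.34). The difference from the Vnd sort, 1.65 ± 0.49, had an edgeR adjusted p of 0.325. CPM and TPM place the Ind sort differently beside the Vnd sort, and the reason was not tested. Mean TPM of vnd was 23.3 in Ind-pos and 21.5 in Ind-neg cells, against 94.1 in 4-6h Vnd-pos and 25.5 in 4-6h Vnd-neg cells. In 4-6h Pros cells vnd was enriched (2.16 ± 0.36), with 150.0 and 169.9 CPM in positive libraries, against 31.4 and 40.0 CPM in negative libraries. The Pros line carries further constructs with vnd sequence in their names, and their part in these counts was not tested.

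Set against neuroblasts, the enrichment of 9 genes was higher in 4-6h Vnd than in 4-6h Pros cells and that of 45 was lower (0.0526% and 0.263% of genes). The receptor medians were 3.29 and 1.22 TPM in Pros-pos libraries, against 6.35 and 3.00 TPM in Pros-neg libraries. dy, a zona pellucida domain gene of the cuticle, was higher by 3.92 ± 0.85, CG8483 by 3.82 ± 0.69 and Vmat by 3.80 ± 0.68, with edgeR adjusted p of 0.0314, 0.00737 and 0.00737. Vmat had 19.0 and 37.5 CPM in 4-6h Pros-pos libraries, against 39.9 and 38.5 CPM in 4-6h Pros-neg libraries. VGlut (3.14 ± 0.69), wrapper (2.47 ± 0.46) and CG14989 (2.39 ± 0.55) were also higher.

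The genes less enriched in Vnd cells were led by CG12507 (-5.67 ± 0.92), nompA, a sensory organ matrix gene (-5.51 ± 0.91), and CG12911 (-4.05 ± 0.88), with edgeR adjusted p of 0.00407, 0.00407 and 0.0314. nompA had 32.0 and 32.8 CPM in Vnd-pos libraries, against 33.3 and 29.3 CPM in Vnd-neg libraries, and 699.6 and 671 CPM in Pros-pos libraries, against 18.0 and 11.0 CPM in Pros-neg libraries. The sorted protein's own gene pros (-4.01), with the neuroblast genes nerfin-1 (-3.64), ase (-3.44), insc (-3.05) and wor (-2.84), was among the 45. These 5 had fold changes above 0 in Vnd cells, between 0.60 and 2.12. lncRNA:CR45388 (-2.84) and lncRNA:CR45387 (-2.83), though enriched in Vnd cells, were more so in Pros cells.

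**Figure D5:**
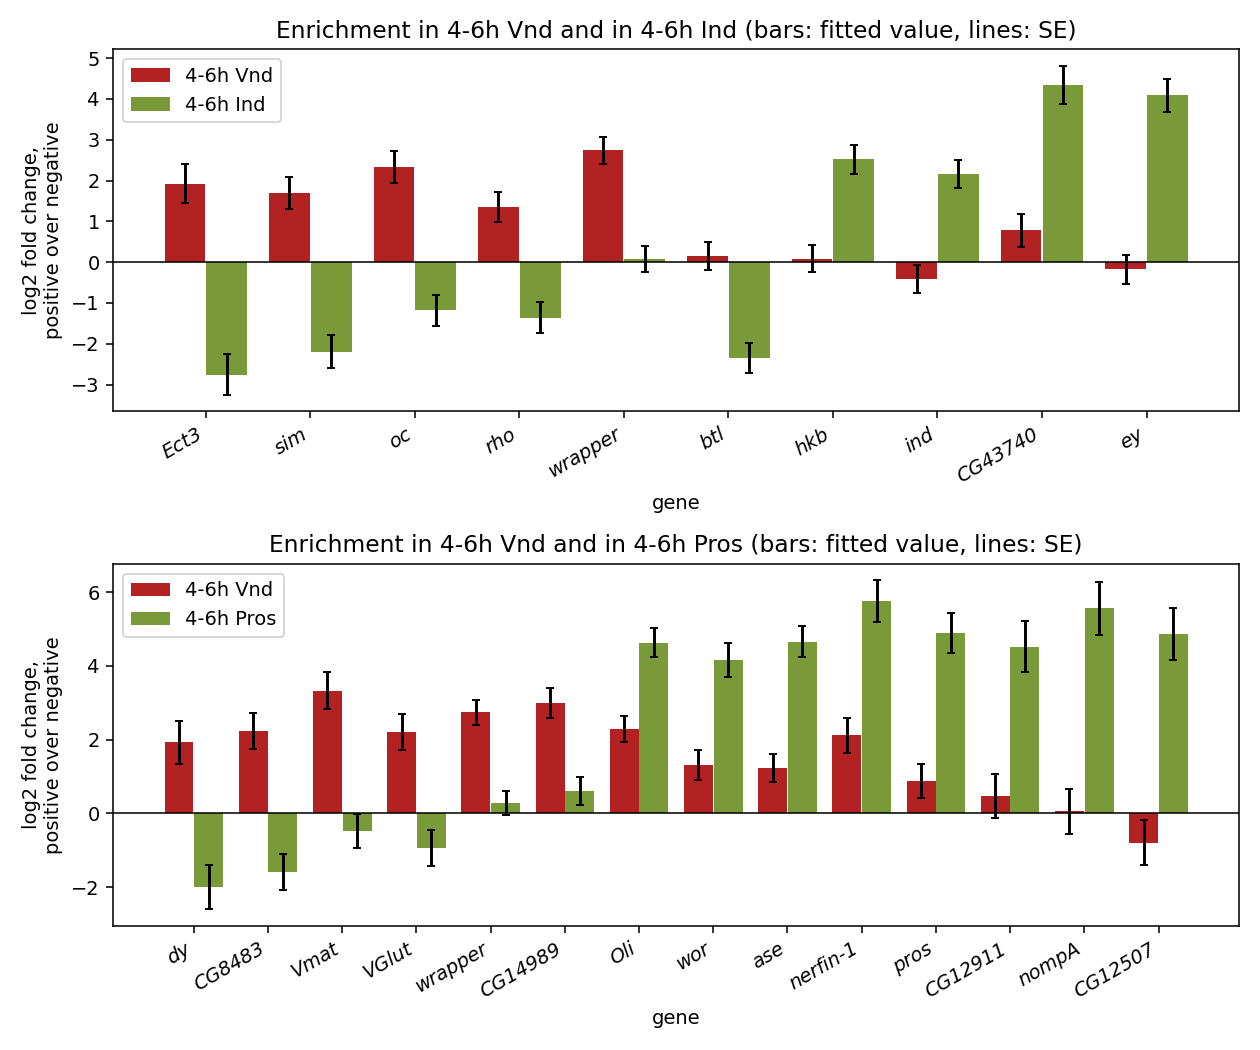
Log2 fold change of positive over negative cells (y axis) for genes whose enrichment differed, in 4-6h Vnd cells (red, left of each pair) beside 4-6h Ind cells (upper panel) or 4-6h Pros cells (lower panel); bars are fitted values and lines their standard errors. Ect3, sim, oc and rho point up in Vnd and down in Ind cells, and the neuroblast genes are enriched far more in Pros cells.

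These differences also depended on the number of libraries. Of 23 differences from Ind cells, 9 were called without Vnd-pos replicate 1, 8 without Vnd-pos replicate 2, 5 without Vnd-neg replicate 1 and 12 without Vnd-neg replicate 2. Of 54 differences from Pros cells, 0, 13, 0 and 18 were called in the same order of omissions, with 687 and 594 genes past the fold threshold at an unadjusted p under 0.05 in the 2 fits that called 0.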

How the data were processed

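The authors quantified reads with Salmon 0.8.1 against an RSEM 1.3.0 reference of dm6, with the stranded library type. The deposited files give, per transcript, an estimated count of reads and TPM. The deposited DESeq2 tables hold the authors' fold changes and p-values and were not used. Of 34428 transcripts, 305 had no gene in Ensembl release 115 and were left out (0.241% to 0.502% of reads). Estimated counts were summed to 17257 genes and rounded, and TPM was summed alike. The 48 libraries held 18120862 to 113452420 reads. They were fitted in 24 group means with edgeR 4.0.16 in R 4.3.3 (TMM, filterByExpr, quasi-likelihood test, Benjamini-Hochberg over 17109 genes), and a call needed an adjusted p under 0.05 and a change past 1 in size on the log2 scale. Errors of fold changes are standard errors. Reads carry no molecular identifiers. The p-values rest on the spread between replicates pooled over all 24 groups, and not on that of the 4 Vnd libraries alone. The procedure was tested on simulated data with an equal spread for all genes and the same means in all other groups. Such data are simpler than these libraries, so the test does not measure error rates here.

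Named genes were vnd, the 16 enriched and 8 depleted genes with the largest change (mean of at least 10 CPM in the higher group, no overlap), up to 4 lncRNA genes, the 3 genes per direction of each difference (10 CPM in a group), and list members. The members and lists were chosen with earlier results of these data known. The alternatives were DESeq2 1.42.0, median-of-ratios factors, no filter, length-scaled TPM counts, the receptor level as covariate, a replicate block, only the 4 libraries, and leaving out each library. The labels do not pair replicates, and the check of pairing is given with the limits. The reporter itself was not analysed here.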

Additional observations from a re-analysis of the deposited data

Results flagged for a closer look

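Enrichments that differed between sorts, by the edgeR test of the difference itself, were looked at again, with all values as the log2 fold change in 4-6h Vnd cells minus that in the other sort. Against 4-6h Ind cells, 3 of 12 midline genes were higher in Vnd cells, sim by 3.90, oc by 3.51 and wrapper by 2.66. Of 13 genes of EGF receptor signalling, rho was higher by 2.71 and no other passed. Ect3 was higher by 4.67. The endodermal factor GATAe (2.79) and the tracheal receptor btl (2.50) were higher too, and both were depleted from Ind cells and not called in Vnd cells. Against the same cells ey (-4.26), CG43740 (-3.57), ind (-2.57) and the zinc-finger gene hkb (-2.43) were lower.

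Against 4-6h Pros cells, dy (3.92), CG8483 (3.82), Vmat (3.80), VGlut (3.14), wrapper (2.47) and CG14989 (2.39) were higher in Vnd cells. Of these, dy was not itself called in Vnd cells. CG12507 (-5.67), nompA (-5.51) and CG12911 (-4.05) were lower. So were the neuroblast and lineage genes pros (-4.01), nerfin-1 (-3.64), ase (-3.44), insc (-3.05), wor (-2.84), Oli (-2.34) and the glial switch gcm (-2.69). The head and brain factors ey (-3.03), tll (-2.42), toy (-2.15) and Optix (-1.90) were lower, as were ind (-2.86), hkb (-2.44), lncRNA:CR45388 (-2.84) and lncRNA:CR45387 (-2.83). Each of these has an edgeR adjusted p below 0.05 over all genes. Groups of 2 libraries are too small for a check of single outlying libraries.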

How the results depend on the processing

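The 95 enriched and 22 depleted genes became 374 and 103 with DESeq2, 265 and 56 with median-of-ratios factors, 218 and 99 with the receptor level as covariate, and 570 and 310 with only the 4 libraries. Each of these fits held all 95 and all 22. Without 1 library the counts ran from 0 to 61 and from 0 to 0, and the log2 fold change of vnd from 1.49 to 1.85. The difference from 6-8h Vnd cells gave 0 genes, 5 with DESeq2 and 1 with the receptor level (0 without any 1 library). The difference from 4-6h Ind cells gave 23 genes, 133 with DESeq2, 66 with median-of-ratios factors, 104 with the receptor level and 5 to 12 without 1 library. The difference from 4-6h Pros cells gave 54 genes, then 514, 154, 248 and 0 to 18. The cause was not tested. Median-of-ratios factors moved the median of all genes by 0.18, to 0.21, on the log2 scale.

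A replicate block gave 67 enriched and 28 depleted genes (62 and 11 of them as before), 21 and 71 differences, and 1.67 for vnd. Deviations of same-numbered libraries correlated at -0.238, so a crossed block, chosen after seeing the data, was tried and gave 75 and 32. Of 38 other named genes, all kept their direction in every fit. For the fits without 1 library this was nearly fixed in advance, as none of the 38 overlapped between groups. 10 lost their call with the block, 2 with length-scaled counts, and 18, 33, 38 and 37 without Vnd-pos replicate 1, Vnd-pos replicate 2, Vnd-neg replicate 1 and Vnd-neg replicate 2. With 2 libraries per group, a miss of the threshold is no sign that a gene did not change.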
